A study of Mus musculus with 98 samples.

Results

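The measurements concern the ends of broken DNA at Jk1 (gene Igkj1), a joining segment of the mouse immunoglobulin kappa locus on chromosome 6, in pre-B cells that lack the histone variant H2AX. The members were chosen by genotype and break from the sample descriptions: Lig4-/- H2AX-/- line 5 (CJ 48) and line 8 (CJ 148) were set against Lig4-/- line A (CJ 1) and line B (CJ 7). They comprise 24 of the 98 read files in the series, which come from 12 of its 49 libraries and 4 of its 17 groups.

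The RAG recombinase cuts next to antigen receptor gene segments in developing lymphocytes. It leaves a coding end closed as a hairpin, which the Artemis nuclease opens, and a blunt signal end. Both are normally joined by non-homologous end joining, and DNA ligase IV (gene Lig4) carries out its ligation step. H2AX (gene H2ax) is the histone that the ATM kinase phosphorylates in the chromatin around a break. This mark helps to gather repair proteins such as 53BP1, and it is known for shielding unjoined ends in G1 cells from nucleases such as CtIP. The strand that runs out with its 5' terminus at the break is called the 5' strand here, and its partner the 3' strand. A 5' overhang means that the 3' strand is the shorter of the pair, and a 3' overhang means that the 5' strand is.

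The cells were Abelson-kinase-transformed pre-B cells arrested in G1, in which unjoined ends persist because all 4 lines lack DNA ligase IV. HCoDES (hairpin capture of DNA end structures) ligates the strands of each end to each other, so that sequencing the amplified product gives the stop of each strand. Titles gave a time of 48 h for H2AX-deficient line 8 and for both Lig4-/- lines, and none for H2AX-deficient line 5. In the titles of Lig4-/- line B there is also an unexplained tag, shNT. H2AX-deficient line 8 was in sequencing run 2, and H2AX-deficient line 5 and both Lig4-/- lines were in run 4.

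Each line has 1 table that pools 3 libraries, so the cell line is the replicate and no spread between libraries was available. Each genotype has 2 lines. The tables held 170853 and 157970 reads in H2AX-deficient lines 5 and 8, and 315274 and 304805 reads in Lig4-/- lines A and B. They listed 685 and 600 end structures in the H2AX-deficient lines and 745 and 678 in the Lig4-/- lines, each a pair of strand stops with at least 2 reads. The deposited average insert size, whose unit is not stated, was 278 and 264 in the H2AX-deficient lines and 395 and 386 in the Lig4-/- lines. It was thus lower where more DNA had been lost, and its part in the results was not tested. In a control cut with KpnI, 99.2% of 307425 reads lay in 1 structure and 0.320% lay 10 nt or more inside the end.

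A difference is described as larger than the spread between lines where the smallest gap between lines of different genotypes exceeded the largest gap inside a genotype. Of 72 measures compared over the lines, 59 had no overlap between genotypes and 38 differed by more than that spread. An exact two-sided permutation test of 2 lines against 2 cannot give a p below 0.333, and the smallest value adjusted by Benjamini-Hochberg over the 72 measures was 0.407. The measures overlap in the reads they use and are not independent of each other. With arbitrary genotype labels, a share of at most 0.333 of features would have no overlap, divided equally between higher and lower.

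Loss of DNA reached much further inward in H2AX-deficient lines. Ends were called far when the 5' strand had lost 10 nt or more, and near otherwise. Far ends made up 87.8% of reads in H2AX-deficient line 5 (exact 95% interval 87.6 to 87.9) and 83.9% in line 8 (83.7 to 84.1), against 32.4% in Lig4-/- line A (32.3 to 32.6) and 54.4% in line B (54.2 to 54.6). No molecular identifiers are described, and several PCR reads may stem from 1 molecule, so such intervals cover counting error only. Both H2AX-deficient lines lay above both Lig4-/- lines, while the Lig4-/- lines stood further apart from each other than the H2AX-deficient lines did.

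The gap between genotypes was wide over most of the measured distance. A loss of 38 nt or more, which is the RefSeq length of Igkj1, was found in 77.0% and 79.2% of reads in H2AX-deficient lines 5 and 8, against 16.03% and 35.0% in Lig4-/- lines A and B. The smallest gap was 41.9 points and exceeded the 19.02 points between the Lig4-/- lines. A loss of 100 nt or more was found in 56.2% and 64.5% of reads in the H2AX-deficient lines, against 9.92% and 25.9% in the Lig4-/- lines. The means differed by 42.4 points, and the lines of a genotype by at most 16.01. Within run 4, which holds line 5 and both Lig4-/- lines, the difference was 38.3 points for losses of 100 nt or more and 44.4 points for far ends. With every structure given equal weight, the differences were 12.0 points for losses of 100 nt or more and 2.51 points for far ends.

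Further in, fewer reads remained in every line, and the gap in points became smaller. For a loss of 140 nt or more the H2AX-deficient lines held 18.0% and 24.9% of reads, against 3.18% and 13.1% in the Lig4-/- lines. The smallest gap there, 4.97 points, was within the 9.88 points between Lig4-/- lines A and B. A loss of 160 nt or more was found in 1.87% and 2.94% of reads in the H2AX-deficient lines, against 0.121% and 1.61% in the Lig4-/- lines. In every line few reads reached the limit of the tables, where the highest loss from the 5' strand was 175 and 179 nt in the H2AX-deficient lines and 181 and 171 nt in the Lig4-/- lines. Ends that had lost more than the amplified stretch could not be counted.

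Reads of H2AX-deficient lines piled up in a stretch far inside the end. Stops of the 5' strand at 120 to 139 nt held 26.98% and 32.1% of reads in H2AX-deficient lines 5 and 8, against 4.62% and 9.36% in Lig4-/- lines A and B. The next stretch, 140 to 159 nt, held 16.2% and 21.9% in the H2AX-deficient lines, against 3.06% and 11.5% in the Lig4-/- lines. Nearer the break the order turned, and stops at 10 to 19 nt held 4.41% and 2.25% against 9.93% and 11.2%. At 20 to 59 nt the lines of the genotypes overlapped. Among far ends alone, the 5' strand had a median loss of 123 and 135 nt in the H2AX-deficient lines and 36 and 83 nt in the Lig4-/- lines. The smallest gap of 40 nt was within the 47 nt between the Lig4-/- lines. For the 3' strand of these ends the medians were 125 and 137 nt against 33 and 78 nt. There the smallest gap of 47 nt just exceeded the 45 nt between the Lig4-/- lines.

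**Figure D1:**
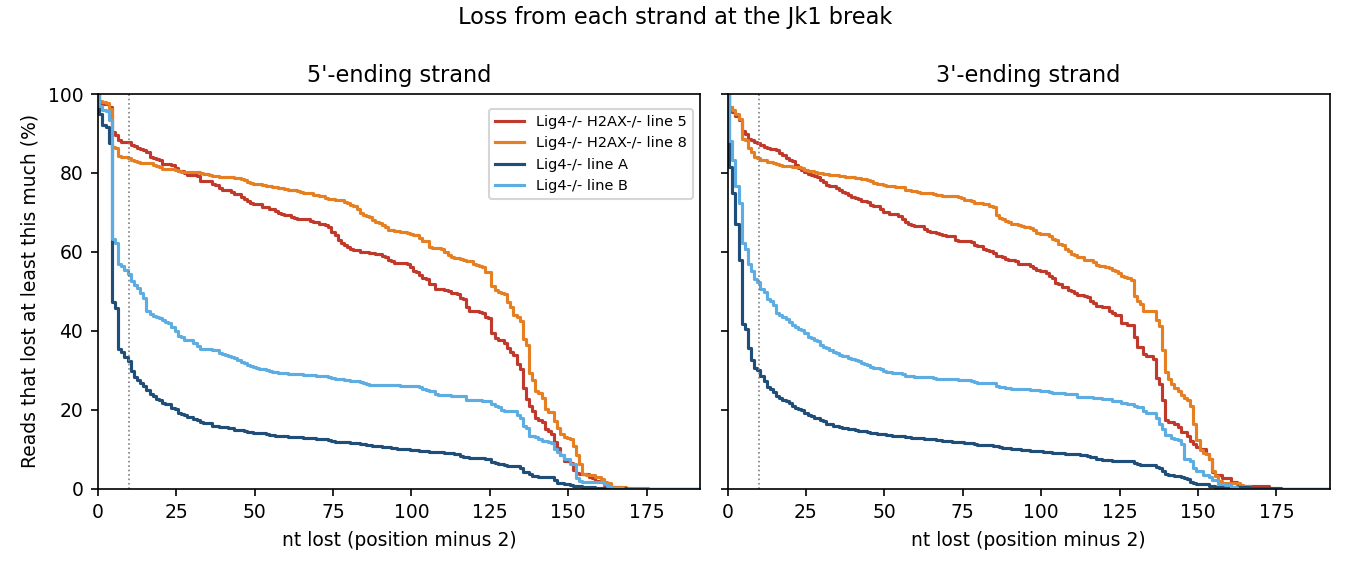
The vertical axis gives the percent of reads that had lost at least the number of nt on the horizontal axis, for the 5' strand (left panel) and the 3' strand (right panel), with 1 line per cell line and a dotted line at 10 nt. At 100 nt on the 5' strand, H2AX-deficient lines 5 and 8 sit at 56.2% and 64.5%, and Lig4-/- lines A and B at 9.92% and 25.9%.

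The 3' strand was lost with the 5' strand. It had lost 10 nt or more in 87.5% and 83.7% of reads in H2AX-deficient lines 5 and 8, against 29.98% and 52.5% in Lig4-/- lines A and B. Stops of this strand at 120 to 139 nt held 28.5% and 26.7% of reads in the H2AX-deficient lines, against 3.75% and 9.02% in the Lig4-/- lines. The curves of both strands therefore ran close together within each line.

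Ends that were far by the 5' strand and near by the 3' strand were few, and fewer in H2AX-deficient lines. In them the 5' strand had lost 10 nt or more and the partner less than 10 nt, so that they have 3' overhangs of any length from 1 nt. They held 0.626% of reads in H2AX-deficient line 5 (exact 95% interval 0.589 to 0.665) and 0.685% in line 8 (0.645 to 0.727), against 3.86% in Lig4-/- line A (3.79 to 3.93) and 3.53% in line B (3.46 to 3.59). The difference of the means was -3.04 points, and lines of a genotype were at most 0.331 points apart. As a share of far ends alone they held 0.713% and 0.816% in the H2AX-deficient lines, against 11.9% and 6.48% in the Lig4-/- lines. That difference too exceeded the spread. With thresholds of 5 and 20 nt in place of 10 nt for both strands, the difference in the share of all reads was -6.98 and -0.588 points. The lines held 1.10% and 1.64% against 11.4% and 5.35% at 5 nt, and 1.13% and 0.430% against 1.34% and 1.40% at 20 nt. At both of these thresholds the lines did not overlap, but the gap between genotypes was smaller than that between lines of a genotype. The opposite kind, with only the 3' strand shortened by 10 nt or more, held 0.332% and 0.491% of reads against 1.42% and 1.65%.

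**Figure D2:**
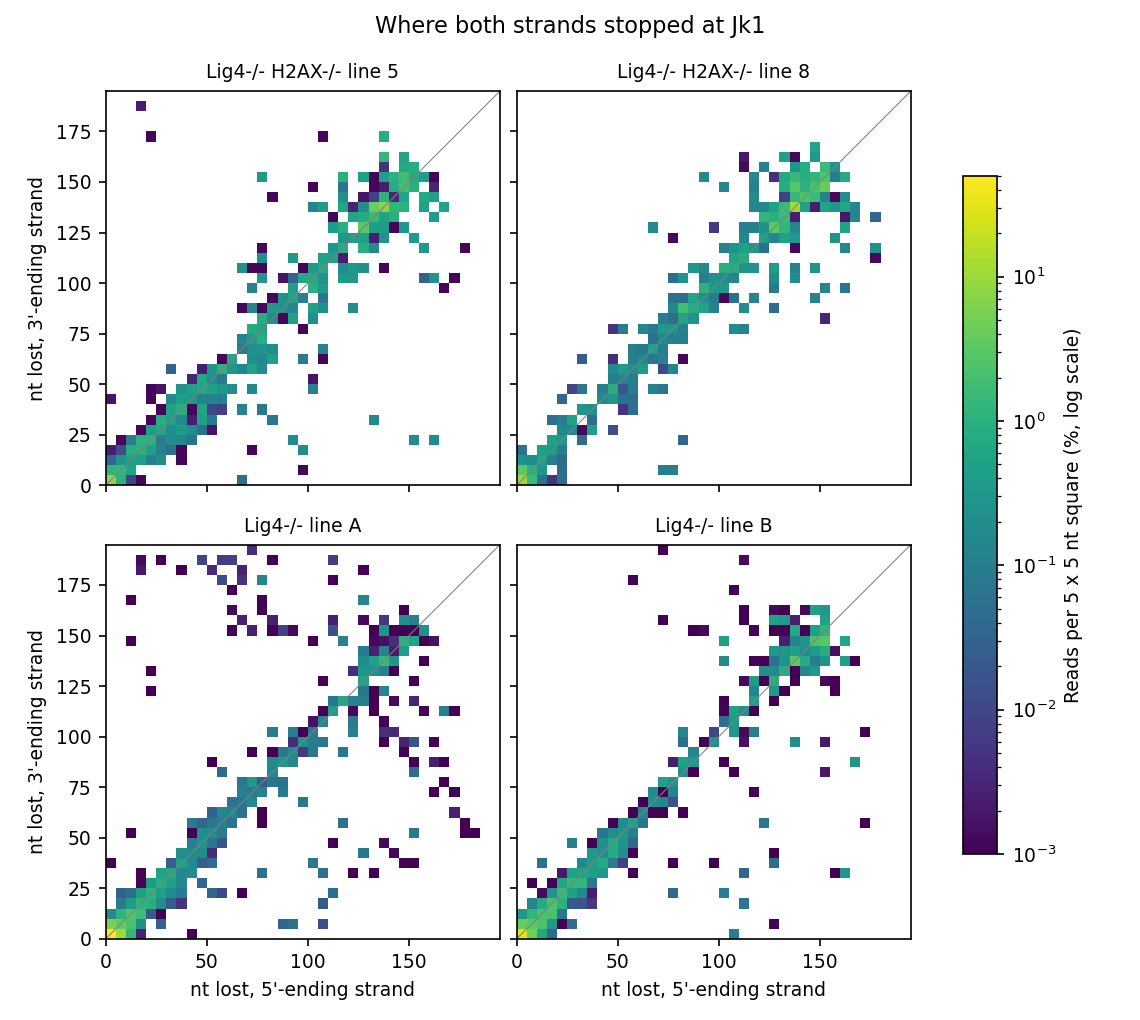
Each square of 5 by 5 nt is coloured by its percent of reads on a log scale (squares under the lowest colour are drawn in it), with loss from the 5' strand across and loss from the 3' strand up, for H2AX-deficient lines 5 and 8 above and Lig4-/- lines A and B below. Most reads follow the grey diagonal of equal loss, and the bright corner near 0 nt is weaker in H2AX-deficient lines, where near ends held 12.2% and 16.1% of reads, than in Lig4-/- lines, where they held 67.6% and 45.6%.

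The ends that stayed near the break also had another make-up. Among near ends, 3' overhangs held 40.7% of reads in H2AX-deficient line 5 (exact 95% interval 40.1 to 41.4) and 36.2% in line 8 (35.6 to 36.8), against 58.2% in Lig4-/- line A (57.9 to 58.4) and 60.5% in line B (60.2 to 60.7). The nearest lines of different genotypes were -17.4 points apart, and lines of the same genotype at most 4.53. Within run 4 the difference was -18.6 points. It was seen in reads and not in kinds of end: with each near structure counted once, 3' overhangs made up 40.3% and 33.3% of near structures in the H2AX-deficient lines and 34.0% and 37.2% in the Lig4-/- lines, which overlap. Blunt ends held 42.8% and 34.1% of near reads in the H2AX-deficient lines, against 27.9% and 24.7% in the Lig4-/- lines, and 5' overhangs held 16.5% and 29.8% against 13.9% and 14.8%. For both of these classes H2AX-deficient lines 5 and 8 were further apart (8.72 and 13.2 points) than the nearest lines of different genotypes (6.16 and 1.72 points).

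The preferred stop of the 5' strand was kept. A loss of exactly 4 nt from this strand held 51.998% and 59.1% of near reads in the H2AX-deficient lines, against 59.7% and 66.1% in the Lig4-/- lines. The nearest lines were -0.639 points apart, less than lines of a genotype were from each other. Near ends without any loss from the 5' strand held 19.4% and 11.3% of near reads in the H2AX-deficient lines, against 7.63% and 6.64% in the Lig4-/- lines, again within the spread. The effective number of near structures, which is the inverse Simpson index of their shares, was 10.5 and 10.9 in the H2AX-deficient lines and 11.9 and 10.6 in the Lig4-/- lines. The lines overlapped on this measure.

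What differed at the preferred stop was the partner strand. Of ends with 4 nt lost from the 5' strand, those whose 3' strand was complete, which form a 4-nt 3' overhang, held 13.1% and 14.7% in the H2AX-deficient lines and 23.9% and 27.4% in the Lig4-/- lines. This gap of at least 9.26 points exceeded the spread of 3.44 points. Ends with 4 nt lost from both strands, which are blunt, held 34.2% and 37.8% in the H2AX-deficient lines, against 30.1% and 24.9% in the Lig4-/- lines. Those with more than 4 nt lost from the 3' strand held 11.002% and 21.3%, against 6.71% and 7.44%. Neither of these last classes overlapped, but lines of a genotype differed by more.

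**Figure D3:**
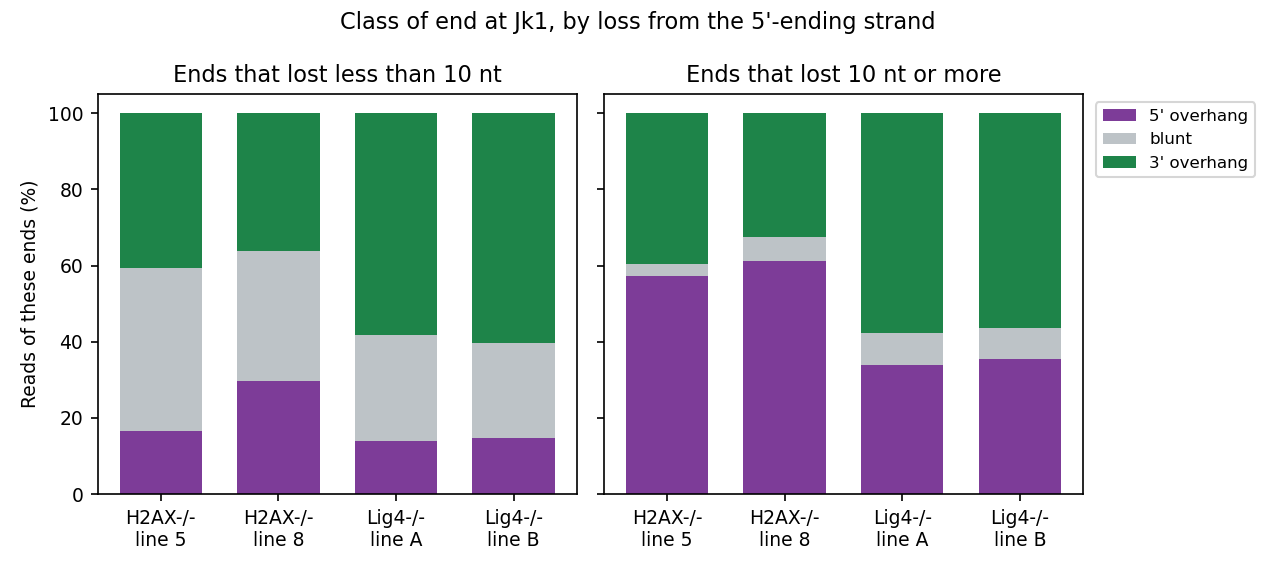
Stacked bars give the percent of reads with a 5' overhang (purple), a blunt end (grey) or a 3' overhang (green), among ends that lost less than 10 nt (left panel) and 10 nt or more (right panel) from the 5' strand, for each of the 4 lines. The green part of both panels is shorter in the H2AX-deficient lines, with 40.7% and 36.2% of near reads and 39.5% and 32.6% of far reads, than in the Lig4-/- lines, with 58.2% and 60.5% of near reads and 57.7% and 56.3% of far reads.

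Far ends of H2AX-deficient lines more often had a 5' overhang. Among far ends, 5' overhangs held 57.3% of reads in H2AX-deficient line 5 (exact 95% interval 57.1 to 57.6) and 61.1% in line 8 (60.9 to 61.4), against 33.97% in Lig4-/- line A (33.7 to 34.3) and 35.5% in line B (35.2 to 35.7). The mean of the H2AX-deficient lines was 59.2% ± 2.70, against 34.7% ± 1.06 for the Lig4-/- lines (SD over lines, n = 2 each). The nearest lines of different genotypes were 21.9 points apart, and lines of the same genotype at most 3.82. Within run 4 the difference was 22.6 points. With each far structure counted once, 5' overhangs made up 41.1% and 46.0% of far structures in the H2AX-deficient lines and 38.2% and 36.7% in the Lig4-/- lines, a smaller difference of 6.10 points in the same direction.

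By length, 5' overhangs of every size class were more frequent in far ends of the H2AX-deficient lines. Overhangs of 1 to 4 nt held 32.2% and 33.8% of far reads in H2AX-deficient lines 5 and 8, against 23.4% and 19.5% in Lig4-/- lines A and B. Those of 5 to 9 nt held 14.1% and 12.9% against 5.37% and 8.76%, and those of 10 nt or more held 10.9% and 14.4% against 5.17% and 7.24%. All 3 differences were larger than those among lines of a genotype. A length of exactly 4 nt held 13.7% and 11.9% of far reads in the H2AX-deficient lines and 7.35% and 8.55% in the Lig4-/- lines. It was the most frequent 5' overhang in 3 of the 4 lines, and in Lig4-/- line A the 2-nt 5' overhang, with 7.36%, was level with it.

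The deficit in 3' overhangs of far ends lay in the short ones. Those of 1 to 4 nt held 12.6% and 16.2% of far reads in the H2AX-deficient lines, against 33.6% and 33.8% in the Lig4-/- lines. Those of 5 to 9 nt held 10.3% and 6.21% against 17.2% and 15.999%. Both differences went beyond the spread. At 10 to 19 nt the lines overlapped, with 10.4% and 3.65% in the H2AX-deficient lines and 3.68% and 3.33% in the Lig4-/- lines. Long 3' overhangs of 20 nt or more ran the other way, with 6.35% and 6.50% against 3.22% and 3.21%, beyond the spread. Blunt far ends held 3.15% and 6.26% against 8.32% and 8.24%, within it. The median far overhang was -2 nt in both H2AX-deficient lines, where a negative length is a 5' overhang, and 1 nt in both Lig4-/- lines.

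**Figure D4:**
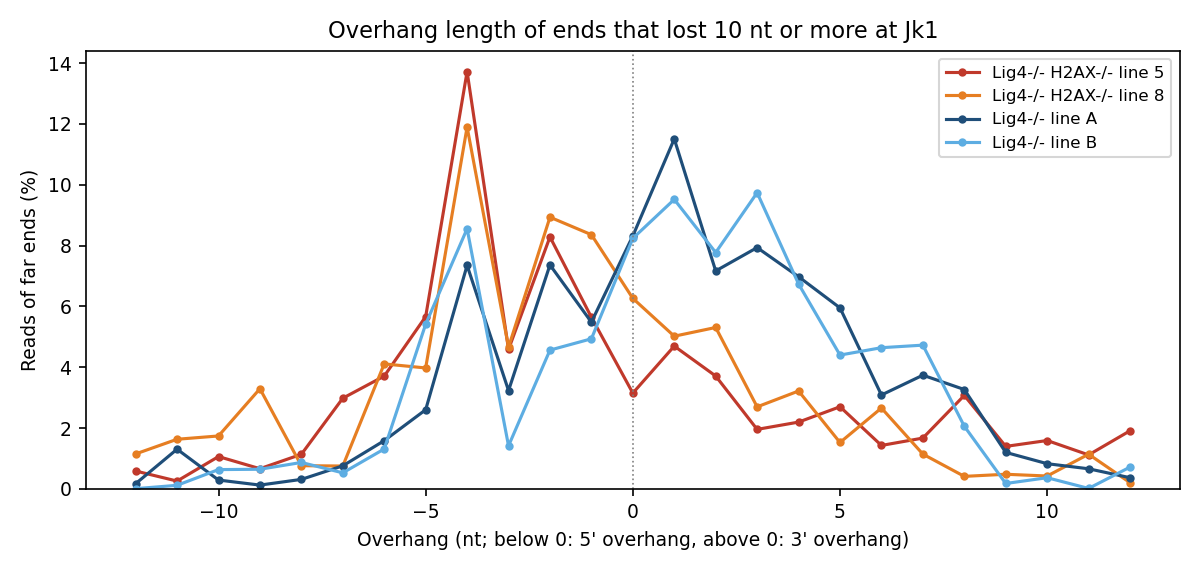
For ends that lost 10 nt or more, the percent of far reads (vertical) is plotted against overhang length in nt (horizontal, 5' overhangs below 0 and 3' overhangs above 0), with 1 line per cell line. All 4 lines have a peak at a 4-nt 5' overhang, at 13.7% and 11.9% in H2AX-deficient lines and 7.35% and 8.55% in Lig4-/- lines, whereas 3' overhangs of 1 to 4 nt are higher in both Lig4-/- lines.

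The overhangs were also compared in 3 stretches of the end. Among ends that had lost 10 to 39 nt, 5' overhangs held 60.4% and 57.1% of reads in the H2AX-deficient lines, against 20.8% and 24.1% in the Lig4-/- lines, a mean difference of 36.2 points that exceeded the spread. Among those that had lost 40 to 99 nt they held 43.2% and 54.9% against 41.7% and 34.4%, and the difference of 10.997 points was within the spread. At 100 nt or more they held 61.6% and 62.9% against 51.7% and 44.6%, a difference of 14.03 points that exceeded it. In Lig4-/- lines the 5' overhang share was thus lowest just inside the break and highest at the far end, while in H2AX-deficient lines it was already near its highest just inside the break. Whether the 3 distance classes differ from each other in the size of the genotype difference was not tested.

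Reads were spread over more structures in H2AX-deficient lines, although their tables held fewer reads. The effective number of structures was 143 and 117 in H2AX-deficient lines 5 and 8, against 25.8 and 46.1 in Lig4-/- lines A and B, and lines of a genotype were at most 26.6 apart. The 10 most abundant structures held 17.5% and 21.5% of reads in the H2AX-deficient lines, against 51.7% and 36.8% in the Lig4-/- lines. It took 66 and 55 structures to hold 50% of reads in the H2AX-deficient lines, against 9 and 25 in the Lig4-/- lines. Within far ends alone the order turned, with an effective number of 139 and 114 against 191 and 141. There the Lig4-/- lines differed by more from each other.

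Far structures recurred only in part between lines. Of 1584 structures listed in any of the 4 lines, 935 were listed in 1 line, and 132 were listed in all 4. The 132 shared structures held 33.0% and 37.7% of reads in H2AX-deficient lines 5 and 8, against 74.1% and 57.4% in Lig4-/- lines A and B. Of the far structures, 166 were listed in both H2AX-deficient lines, which is 26.9% of those in line 5 and 30.9% of those in line 8. The Lig4-/- lines shared 328 far structures, 50.4% of those in line A and 55.4% of those in line B. Their tables were deeper, and a structure needs 2 reads to be listed, so these counts depend on depth. Structures listed in both H2AX-deficient lines and in no Lig4-/- line numbered 33 of the 1584 and held 5.68% and 5.40% of reads in lines 5 and 8. The reverse class, listed in both Lig4-/- lines and in no H2AX-deficient line, numbered 113 and held 4.88% and 5.97% of reads in lines A and B.

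Stops of the 5' strand were then set side by side between lines. Across the 168 positions with 10 nt or more lost from the 5' strand, shares of far reads correlated with Pearson's r = 0.643 between the H2AX-deficient lines and 0.576 between the Lig4-/- lines. Between lines of different genotypes r lay between 0.180 and 0.405. By rank the contrast was smaller for the H2AX-deficient lines. Spearman's rho was 0.489 between them and 0.557 between the Lig4-/- lines, against 0.228 to 0.410 between genotypes. These values describe positions, which are not independent, and lines amplified over the same window.

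Single structures were then tested with edgeR's quasi-likelihood test on the read counts, scaled by total reads and adjusted by Benjamini-Hochberg. Of 373 structures with a share of at least 0.01% in 2 or more tables, 1 was called (0.268%), and 83 had an unadjusted p under 0.05. It was the near end with a 4-nt 3' overhang, in which the 5' strand was 4 nt short and the partner complete. This end had 1425 and 2207 reads in H2AX-deficient lines 5 and 8, against 30456 and 25159 reads in Lig4-/- lines A and B. These are 0.834% and 1.40% of reads against 9.66% and 8.25%, so both H2AX-deficient lines lay far below both Lig4-/- lines. Its log2 fold change was -3.01 ± 0.31 (SE) with an edgeR adjusted p of 0.0263. The call was lost with TMM factors and with any line left out (adjusted p between 0.122 and 0.439), and its direction was kept in each of these.

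Other ends with the same 5' stop were also lower in both H2AX-deficient lines without passing that test. The end blunt at 4 nt held 2.17% and 3.59% of reads in H2AX-deficient lines 5 and 8, against 12.1% and 7.49% in Lig4-/- lines A and B (edgeR adjusted p = 0.114). The 2-nt 3' overhang at this stop held 0.963% and 0.992% against 5.11% and 4.89%, with an edgeR adjusted p of 0.0564. The 1-nt 3' overhang held 0.767% and 0.772% against 6.29% and 3.49%, and the 3-nt 3' overhang held 0.916% and 0.737% against 4.47% and 3.79%. The blunt end without loss held 2.30% and 1.68% against 4.69% and 2.92%. None of these 5 near ends had overlapping lines, and of all 58 near structures tested 36 were lower without overlap. The ends at the 4-nt stop were named for a high share in Lig4-/- lines and among the largest losses without overlap. Their lack of overlap is therefore no separate finding.

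The structures with the largest gains in share were 5' overhangs far inside, and none passed the edgeR test. The 4-nt 5' overhang with 135 nt lost from the 5' strand was the most abundant structure of line 5. It held 3.53% and 3.46% of reads in H2AX-deficient lines 5 and 8, against 0.882% and 1.32% in Lig4-/- lines A and B (edgeR adjusted p = 0.176). Another 4-nt 5' overhang, with 125 nt lost, held 3.06% and 2.48% against 0.435% and 0.569% (edgeR adjusted p = 0.176). These were about equally high in both H2AX-deficient lines.

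Further structures in this stretch leaned on line 8. The 1-nt 5' overhang with 137 nt lost held 1.03% and 3.73% of reads in H2AX-deficient lines 5 and 8, against 0.265% and 0.898% in Lig4-/- lines A and B. The 2-nt 5' overhang at the same stop had 949 and 2467 reads in the H2AX-deficient lines and was listed in neither Lig4-/- line. A 9-nt 5' overhang with 123 nt lost held 0.569% and 1.18% against 0.00412% and 0.216%.

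Reads were also summed over partner strands, to test single stops of the 5' strand. Of 157 positions tested with edgeR, 4 were called (2.55%), 3 of them higher (1.91%) and 1 lower (0.637%) in the H2AX-deficient lines. The lower one was the preferred near stop at 4 nt. It had 10853 and 15038 reads in H2AX-deficient lines 5 and 8, against 127255 and 91916 reads in Lig4-/- lines A and B. As shares these are 6.35% and 9.52% against 40.4% and 30.2%, with a log2 fold change of -2.15 ± 0.38 (SE) and an edgeR adjusted p of 0.0335. This call was lost without either H2AX-deficient line, and its direction was kept.

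The 3 stops that were higher lay far inside and were nearly empty in the Lig4-/- lines. At 142 nt, H2AX-deficient lines 5 and 8 had 3096 and 4324 reads, against 10 and 3 reads in Lig4-/- lines A and B (edgeR adjusted p = 0.0219). At 131 nt they had 1877 and 1843 reads against 16 and 12 (edgeR adjusted p = 0.0335). At 92 nt they had 1464 and 1436 reads against 6 and 3 (edgeR adjusted p = 0.0335). In each case the H2AX-deficient lines were close to each other and far above both Lig4-/- lines. The fitted log2 fold changes of 10.06, 7.96 and 9.20 rest on Lig4-/- counts near the 2 reads needed for listing and are uncertain in size. With TMM factors only the stop at 142 nt was called of the 4. The 3 far stops met the filter of 0.01% in 2 tables only through the H2AX-deficient lines. A stop this empty in the Lig4-/- lines could thus be tested only where both H2AX-deficient lines held it. Without either H2AX-deficient line these 3 stops were not tested.

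The stops beside the called ones were unevenly filled in the Lig4-/- lines. Next to 92 nt, the stop at 91 nt had 603 and 827 reads in H2AX-deficient lines 5 and 8, against 485 and 0 in Lig4-/- lines A and B, and the stop at 93 nt had 313 and 2 reads against 406 and 0. Next to 131 nt, the stop at 130 nt had 1946 and 3228 reads against 454 and 5, and the stop at 132 nt had 1218 and 3190 reads against 7 and 83. Beside 142 nt, the stop at 141 nt had 1089 and 1937 reads against 447 and 1927, and the stop at 143 nt had 522 and 1276 reads against 7 and 723. The Lig4-/- lines thus had under 100 reads at 132 nt too, and elsewhere 1 of them was often nearly empty where the other was filled.

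Some stops of the same stretch were filled in both Lig4-/- lines. At 135 nt the H2AX-deficient lines held 4.95% and 4.53% of reads, against 1.04% and 1.97% in Lig4-/- lines A and B. At 125 nt they held 3.75% and 3.48% against 0.780% and 0.627%. At 137 nt they held 1.90% and 7.03% against 0.389% and 1.98%, so that line 5 lay between the Lig4-/- lines and line 8 above both.

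The partner strands at the called stops were in part the same and in part different in the H2AX-deficient lines. At 142 nt the leading end, a 6-nt 5' overhang, had 975 and 1103 reads in H2AX-deficient lines 5 and 8, against 3 reads in each Lig4-/- line. At 131 nt a 1-nt 3' overhang had 1239 and 704 reads in the H2AX-deficient lines, against 11 and 3 in the Lig4-/- lines. At 92 nt the leading ends were not shared: a 6-nt 5' overhang had 837 reads in line 8 and was not listed in line 5, while a blunt end and a 4-nt 5' overhang had 538 and 475 reads in line 5 and were not listed in line 8. The only end at 92 nt listed in both was a 5-nt 5' overhang, with 4 reads in line 5 and 274 in line 8. Of the 50 Lig4-/- reads at these 3 stops, 42 lay in structures also listed in an H2AX-deficient line, and the source of those reads was not tested.

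**Figure D5:**
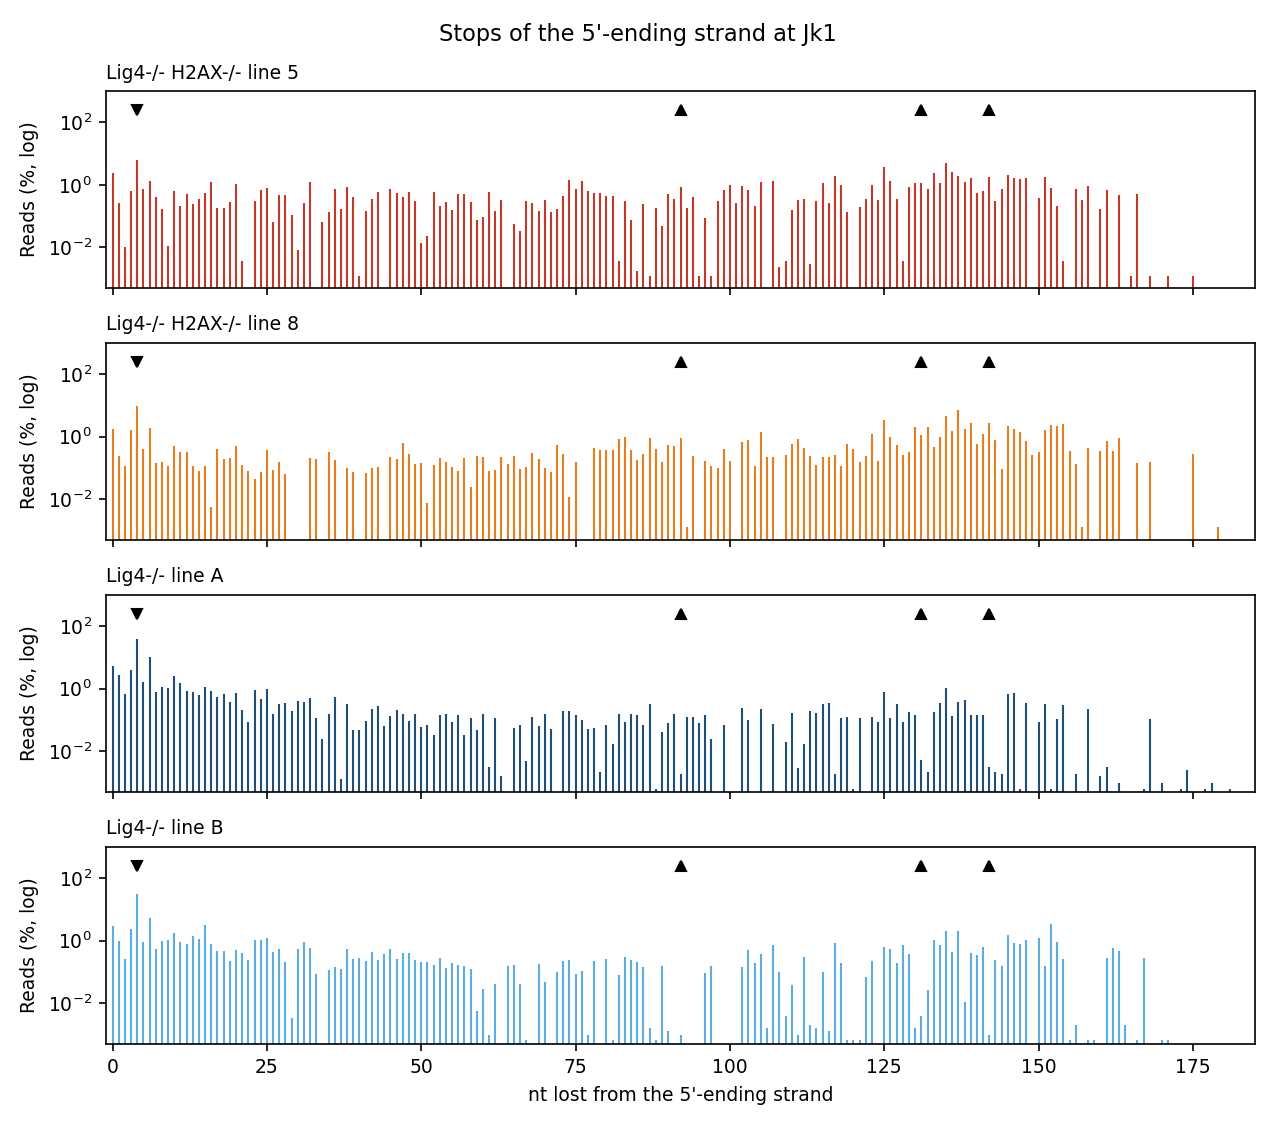
The percent of reads on a log axis is plotted for each stop of the 5' strand, in nt lost, in 1 panel per line. Triangles mark the 4 called stops: 1 pointing down at 4 nt, where H2AX-deficient lines hold 6.35% and 9.52% of reads and Lig4-/- lines 40.4% and 30.2%, and 3 pointing up at 92, 131 and 142 nt, where the Lig4-/- panels are nearly empty.

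Across all positions of the 5' strand, 58 of 157 (36.9%) were higher in both H2AX-deficient lines than in both Lig4-/- lines, and 28 of 157 (17.8%) were lower in both. Arbitrary labels would give a share of at most 0.333 for both directions together. All 10 near positions, from 0 to 9 nt, were among those lower. Of the 147 far positions, 58 were higher, 18 were lower and 71 overlapped. These counts share 1 total, so a lower share of near reads goes with higher shares elsewhere. When edgeR was run on far ends alone, scaled by far reads, 0 of 147 positions were called, with 20 at an unadjusted p under 0.05. The adjusted p of the stops at 92, 131 and 142 nt was then 0.182.

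For the 3' strand, edgeR called 0 of 154 positions (0%), with 23 at an unadjusted p under 0.05, while DESeq2 called 23. No position was higher or lower by edgeR's adjusted p. Without overlap, 59 (38.3%) were higher and 24 (15.6%) lower in both H2AX-deficient lines. Arbitrary labels would give a share of at most 0.333 for both directions together. The leading stop, at 139 nt, held 5.01% and 5.44% of reads in H2AX-deficient lines 5 and 8, against 0.882% and 1.32% in Lig4-/- lines A and B (edgeR adjusted p = 0.115). The complete 3' strand, with no loss, held 3.29% and 3.20% against 18.4% and 11.9% (edgeR adjusted p = 0.115). Both positions were named for a high share and among the largest changes without overlap, so their lack of overlap is no separate finding.

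Among single structures, 54 of 373 (14.5%) were higher and 147 (39.4%) lower in both H2AX-deficient lines than in both Lig4-/- lines. Arbitrary labels would give a share of at most 0.333 for both directions together. Of the 58 near structures tested, 36 were lower and 2 higher. Of the 315 far structures, 111 were lower and 52 higher, although far ends as a whole held more reads. These counts depend on the read filter and on depth. A structure absent from both lines of a genotype was tested only where both lines of the other genotype passed the filter. Before the filter, 113 structures were listed in both Lig4-/- lines and in no H2AX-deficient line, against 33 for the reverse class. The excess of lower structures therefore cannot be read as an effect of genotype alone. By DESeq2, 38 of the 373 structures were higher and 101 lower at an adjusted p under 0.05, against 0 higher and 1 lower by edgeR.

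A line lacking 53BP1 in place of H2AX (Lig4-/- 53BP1-/- line B, 258051 reads) was also measured at Jk1. It had 84.6% far ends, 34.0% 3' overhangs among near ends and 0.423% of reads far by the 5' strand and near by the 3' strand. Among far ends it had 70.5% 5' overhangs, more than the 57.3% and 61.1% of H2AX-deficient lines 5 and 8. The excess lay in the longer ones: 5' overhangs of 10 nt or more held 28.6% of its far reads, against 10.9% and 14.4% in H2AX-deficient lines, while those of 1 to 4 nt held 22.7% against 32.2% and 33.8%. With 1 line against 2, an exact permutation test of this difference cannot reach a p below 0.333. At the stops of 92, 131 and 142 nt it had 1281, 2784 and 4063 reads, where the Lig4-/- lines had 16 reads or fewer. These stops had been called with the same Lig4-/- counts, so the low Lig4-/- side of this contrast is no separate finding. Over far stops of the 5' strand, the 53BP1-deficient line correlated with H2AX-deficient lines 5 and 8 at Pearson's r = 0.583 and 0.753. The second value is above the 0.643 between the H2AX-deficient lines. With Lig4-/- lines A and B its r was 0.110 and 0.269. The comparison of each genotype with Lig4-/- cells rests on the same 2 Lig4-/- lines.

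The same lines were cut by RAG at a chromosomal recombination substrate, so the make-up of ends could be set beside that at Jk1. At the substrate, 5' overhangs held 32.6% and 42.5% of far reads in H2AX-deficient lines 5 and 8, against 20.9% and 29.6% in Lig4-/- lines A and B. The genotype difference in this share was 24.5 points at Jk1 and 12.3 points at the substrate. At the substrate it was within the spread, with a smallest gap of 2.98 points and lines of a genotype up to 9.90 points apart. Each H2AX-deficient line had a larger difference between Jk1 and the substrate (24.7 and 18.6 points) than each Lig4-/- line (13.1 and 5.84 points). Ends that were far by the 5' strand and near by the 3' strand differed by -3.04 points at Jk1 and by -7.52 points at the substrate. For both, the exact permutation p of the difference between sites was 0.333, the smallest that 2 lines against 2 can give, and 0.667 after adjustment over 6 measures. The same p was found for the median loss of far ends (69.5 and 101.5 nt). For far ends (42.4 and 37.6 points), near 3' overhangs (-20.9 and -15.8 points) and the effective number of structures (94.2 and 103), the differences between sites overlapped between genotypes. At the substrate the last 2 were within the spread. For near 3' overhangs the smallest gap was -0.222 points, with lines of a genotype up to 22.1 points apart. For the effective number it was 42.4, with lines of a genotype up to 109 apart.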

How the data were processed

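Genomic DNA was ligated with a single-stranded DNA ligase, treated with bisulfite, amplified and sequenced on an Illumina MiSeq, per the labels' protocols. For each group the authors deposited a table of read counts per end structure, pooled over 3 libraries (1 for KpnI) and not normalised, with a position and an overhang. No coordinates are printed, since the genome build, like the aligner and filters, is not given in the sources used here. The position was read as the stop of the 5'-ending strand, and position minus overhang as that of the 3'-ending strand. Loss is the position minus 2, the lowest position in every table used. Positive overhangs were read as 3' overhangs, from the KpnI table. The tables do not say whether the ends are coding or signal ends, and a hairpin-closed end would read as an end without loss. A further table of Lig4-/- line B held the same 678 structures and counts and was left out.

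The members, lists and tests were chosen with earlier results of these data known. The structures named are, by rule, the 5 with the highest mean share in each genotype, the 5 largest gains and losses without overlap, and those called. For strand positions the 3 leading ones were named in the same way. The stops at 92, 131 and 142 nt were called, and the partner strands at them were chosen after their values were seen.

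Python 3.11.15 with scipy 1.17.1, numpy 2.4.6 and pandas 2.3.3 gave the shares, and matplotlib 3.10.9 the figures. Counts were tested with edgeR 4.0.16 in R 4.3.3 (glmQLFit, glmQLFTest, total reads as library size, at least 0.01% of reads in 2 tables, Benjamini-Hochberg threshold 0.05), with DESeq2 1.42.0 as an alternative. Intervals are exact Clopper-Pearson at 95% and cover counting error only. P-values measure the spread between lines, and nothing in the labels says whether lines of a genotype are independent clones. Gene symbols and the length of Igkj1 come from a RefSeq table of GRCm38.p6.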

Additional observations from a re-analysis of the deposited data

How the results depend on the processing

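All values here are H2AX-deficient minus Lig4-/- lines, in percentage points of reads unless stated. No paired analysis was possible because no label ties a line of one genotype to a line of the other and the tables carry no replicate numbers. With each line left out in turn, the difference was 31.4 to 53.4 for far ends and 33.1 to 55.6 for 10 nt or more lost from the 3' strand. It was -3.20 to -2.87 for ends far by the 5' strand and near by the 3' strand, and 34.4 to 50.4 for losses of 100 nt or more. For near 3' overhangs it was -23.1 to -18.6, for far 5' overhangs 22.6 to 26.4, and for the effective number of structures 80.9 to 107. Counting each structure once gave 2.51 for far ends, 5.58 for the 3' strand and -3.99 for ends far by the 5' strand and near by the 3' strand. It gave 12.0 for losses of 100 nt or more and 6.10 for far 5' overhangs, and turned near 3' overhangs to 1.19. Without the 10 most abundant structures, added after seeing the data, far ends differed by 14.5. Ends far by the 5' strand and near by the 3' strand differed by -3.44 without the most abundant structure. They differed by -2.79 with the break placed 1 nt further inside, and by -6.98 and -0.588 at thresholds of 5 and 20 nt. Near 3' overhangs differed by -24.2 at 20 nt and by -17.9 with strands 1 nt apart called blunt. Far 5' overhangs differed by 27.6 at 5 nt, 18.5 at 20 nt and 21.4 where both strands had to be far, which was tried after seeing the data. The cause of these shifts was not tested.

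Calls depended on the tool and scaling. Structures called numbered 0 of 373 with TMM factors, 139 of 373 with DESeq2, 6 of 1584 with no filter and 0 of 326 on far ends alone. Positions of the 5' strand called numbered 1 of 157 with TMM factors (142 nt), 26 of 157 with DESeq2 and 0 of 147 on far ends alone. They numbered 0 to 28 with a line left out: 0 without either H2AX-deficient line, where the stops at 92, 131 and 142 nt no longer met the filter, 26 without Lig4-/- line A and 28 without line B. For the 3' strand the count was 23 of 154 with DESeq2. TMM factors moved the median log2 fold change of structures to -0.10, against -0.56 with total reads, and that of 5' positions to 0.15, against 0.93. Depth limits structures near the 2 reads needed for listing.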

Other observations

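A band of rare structures lay across the map of both strands in Lig4-/- line A. Among structures whose strands stopped more than 30 nt apart, those with losses adding up to 220 to 260 nt numbered 5 and 9 in H2AX-deficient lines 5 and 8, against 55 and 14 in Lig4-/- lines A and B. They held 0.520% and 1.15% of reads in the H2AX-deficient lines, against 0.311% and 1.18% in the Lig4-/- lines. In Lig4-/- line A their median was 4 reads. The band was chosen after the values were seen.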
